A study of Mus musculus with 9 samples.

Results

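The IL-15 and IL-18 axis was followed through 4 genes: Il15, its presenting receptor chain Il15ra, Il18 and the secreted antagonist Il18bp. They were chosen by name, and each had exactly 1 transcript cluster (the probes of 1 gene locus) with a single gene symbol, so no choice among clusters was needed. They are 4 of 19938 genes on the array. All 4 were among the 10728 genes bright enough to be tested, and the lowest value of any member on any array, 135 on the linear intensity scale, lay above the brightness floor of 61.3. The cells were conventional dendritic cells (cDC) sorted from spleens of 129SvEv/Tac mice, either wild type (WT) or lacking both Batf and Batf3 (Batf-/- Batf3-/-, here DKO). Resting and activated cDC2 of both genotypes gave 2 arrays per group, and resting WT cDC1 gave 1 array. Activation meant IFN-gamma at 100 ng/ml for 1 h, followed by E. coli LPS at 1 µg/ml for another 3 h. The study asked which genes of these dendritic cells depend on the BATF transcription factors. The labels name no separate mice or cultures for arrays of the same group, and do not say how long resting cells were kept before extraction. The p-values therefore measure only the spread between these arrays, which may be technical.

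IL-15 is a cytokine that natural killer (NK) cells and memory CD8 T cells need to survive. It is seldom found free: IL-15 receptor alpha, made by the same myeloid cell, binds it inside the cell and holds it out at the surface to neighbours that carry the IL-2/15 receptor beta and common gamma chains. IL-18 is stored as an inactive precursor, cut by caspase-1 once an inflammasome forms, and, together with IL-12, drives IFN-gamma production by NK and T cells. IL-18 binding protein, itself an interferon-gamma target gene, captures mature IL-18 and blocks it.

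The promoters are shown because Il15ra and Il18bp rose on activation in both genotypes while Il18 did not pass the test. RefSeq's table for GRCm38.p6 covers 250 bases before to 50 bases after a transcription start and held Il15ra (with 2 starts), Il18 and Il18bp. Il15 was not matched. Both strands were searched for a GAS element (TTCNNNGAA), an IRF element (GAAANNGAA), an AP-1 site (TGANTCA, the class of site that BATF dimers bind), a C/EBP site (TTGCNNCAA) and a kappaB site. Capitals mark the matches, and the sequences run 5′ to 3′ on the strand of the gene.
Il15ra, second start, chr2:11705462-11705761, plus strand: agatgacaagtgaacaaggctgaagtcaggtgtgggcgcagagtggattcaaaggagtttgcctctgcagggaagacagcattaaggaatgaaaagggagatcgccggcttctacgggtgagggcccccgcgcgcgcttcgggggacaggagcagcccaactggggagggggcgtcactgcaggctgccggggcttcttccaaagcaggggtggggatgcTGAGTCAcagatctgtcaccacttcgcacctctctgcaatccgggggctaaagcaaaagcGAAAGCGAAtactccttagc
Il18bp, chr7:102018183-102018482, minus strand: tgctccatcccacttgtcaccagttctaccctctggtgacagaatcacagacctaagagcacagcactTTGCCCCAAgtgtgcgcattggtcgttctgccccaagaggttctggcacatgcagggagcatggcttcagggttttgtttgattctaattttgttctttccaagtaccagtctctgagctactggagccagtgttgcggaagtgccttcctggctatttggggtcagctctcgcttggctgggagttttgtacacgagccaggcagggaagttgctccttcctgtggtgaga
Il18, chr9:50554450-50554749, plus strand: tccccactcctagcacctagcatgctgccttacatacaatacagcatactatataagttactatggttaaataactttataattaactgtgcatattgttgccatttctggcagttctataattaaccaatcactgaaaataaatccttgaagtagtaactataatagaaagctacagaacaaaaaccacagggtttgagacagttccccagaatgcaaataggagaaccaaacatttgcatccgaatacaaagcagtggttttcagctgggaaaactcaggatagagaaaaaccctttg
The Il15ra promoter above held the AP-1 match TGAGTCA at position -30 and the IRF element GAAAGCGAA at position 31, counted from 1 at the start site with no position 0. The other Il15ra start, chr2:11705043-11705342 on the plus strand, held an IRF element on the minus strand at position -149. Il18bp held the C/EBP match TTGCCCCAA at position -182, and Il18 held no match to any of the 5 motifs. Of 32851 promoters of this length, 8.56% held the IRF element, 7.81% the AP-1 site and 2.08% the C/EBP site. The GAS element was in 8.30% and the kappaB site in 8.46%. In numbers of promoters these ran from 683 for the C/EBP site to 2812 for the IRF element. A match describes the letters only, and no binding was measured.

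The labels were checked first. Batf read 5.31 to 5.44 (log2 intensity) on the 4 DKO arrays and 6.74 to 9.07 on the 5 WT arrays, and Batf3 read 6.43 to 7.17 against 7.58 to 9.92. The cDC2 arrays carried Irf4 at 9.37 to 11.02, against 5.13 on the cDC1 array, while Xcr1 (9.33) and Clec9a (8.67) stood out there and did not exceed 4.73 and 4.32 on any cDC2 array. Of 8 cDC1 markers, 6 were highest on the cDC1 array. The exceptions were Itgb8, at 9.53 against up to 10.79 on cDC2 arrays, and Tlr3, at 6.35 against up to 7.03. Of the other cDC2 markers, Clec4a4 and Cd209a were below the floor of 5.94 on every array, and Itgam lay between 5.54 and 6.02 on cDC2 arrays. The NK cell markers Ncr1, Klrb1c, Gzma, Eomes and Klre1 were below the floor on every array. Over all 7 NK markers the list mean was 4.52 to 4.89 on resting and 4.90 to 5.07 on activated cDC2 arrays and 4.87 for cDC1. Klrk1 was the exception that moved as Il15 did, from 4.87 and 6.47 in resting WT to 6.61 and 7.91 in activated WT cells, and its part in the Il15 values was not tested. In bulk samples such as these, fewer cells of a type and less RNA per cell cannot be told apart.

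Il15 was higher on every activated cDC2 array than on every resting one, but the resting arrays were far apart. Its intensity in resting WT cDC2 was 143 on replicate 1 and 819 on replicate 2. In activated WT cDC2 it was 951 and 1790. In DKO cDC2 it was 135 and 321 at rest and 1450 and 1540 after activation. The activated DKO arrays thus lay close together, while the second resting WT array came within reach of the lower activated WT array without overlapping it.

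On the log2 scale the mean for Il15 rose from 8.42 ± 1.78 (SD, n = 2) to 10.35 ± 0.65 (SD, n = 2) in WT cells, a difference of 1.93 ± 0.83 (SE) with a 95% interval from -0.08 to 3.94. This 3.81-fold difference did not pass the limma test (adjusted p = 0.179, Benjamini-Hochberg over all genes tested). In DKO cells the mean went from 7.70 ± 0.88 (SD, n = 2) to 10.54 ± 0.06 (SD, n = 2), a difference of 2.84 ± 0.83 (SE), or 7.18-fold, with limma adjusted p = 0.0715. Same-numbered replicates deviated together across the 4 cDC2 groups, and with the replicate number as a block Il15 passed limma's test in both genotypes (adjusted p = 0.0239 in WT and 0.00616 in DKO) at unchanged differences. The mean of both genotypes' responses, a comparison chosen after the values were seen, was 2.39 ± 0.59 (SE), 5.23-fold higher, with limma adjusted p = 0.0262, and 10.6% of all genes tested were called higher there. That call was lost without DKO resting replicate 1 (2.07, adjusted p = 0.0792 by limma), DKO activated replicate 1 (2.41, 0.0768), DKO activated replicate 2 (2.37, 0.0727) or WT activated replicate 2 (2.16, 0.0820). The WT difference was 0.67 without resting replicate 1 (limma adjusted p = 0.551) and 3.19 without resting replicate 2 (adjusted p = 0.0483). The DKO difference, at its unchanged value of 2.84, passed limma's test without WT resting replicate 1 (adjusted p = 0.0241) or WT resting replicate 2 (0.0243), arrays that enter it only through the shared estimate of the spread. It was 2.22 without DKO resting replicate 1 (limma adjusted p = 0.255) and 3.47 without DKO resting replicate 2 (0.142).

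Il15ra, the chain that carries IL-15 to the cell surface, rose in both genotypes and reached nearly the same level in each. Its intensity was 214 and 488 on the resting WT arrays and 1180 and 1350 on the activated ones. The DKO arrays read 156 and 225 at rest and 1160 and 1240 when activated. The 4 activated arrays were tightly grouped, and the highest resting array, WT replicate 2, lay well below them.

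The log2 mean of Il15ra went from 8.34 ± 0.84 (SD, n = 2) to 10.30 ± 0.14 (SD, n = 2) in WT cells, higher by 1.96 ± 0.38 (SE), or 3.90-fold (limma adjusted p = 0.0318). In DKO cells it went from 7.55 ± 0.38 (SD, n = 2) to 10.22 ± 0.07 (SD, n = 2), higher by 2.68 ± 0.38 (SE), or 6.40-fold (limma adjusted p = 0.00990). Il15ra also rose in the mean of both responses, by 2.32 ± 0.27 (SE; limma adjusted p = 0.00251). With the replicate block Il15ra stayed called in both genotypes. The runs below, each with an array left out, did not use that block. The WT call is fragile: leaving out any 1 of the 8 cDC2 arrays other than WT resting replicate 2 put limma's adjusted p at 0.0551 to 0.145, with differences from 1.37 (without WT resting replicate 1) to 2.06 (without WT activated replicate 1). The DKO call was lost without any 1 of the 4 DKO arrays, at limma adjusted p from 0.0542 to 0.0630 and differences from 2.41 to 2.94.

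**Figure D1:**
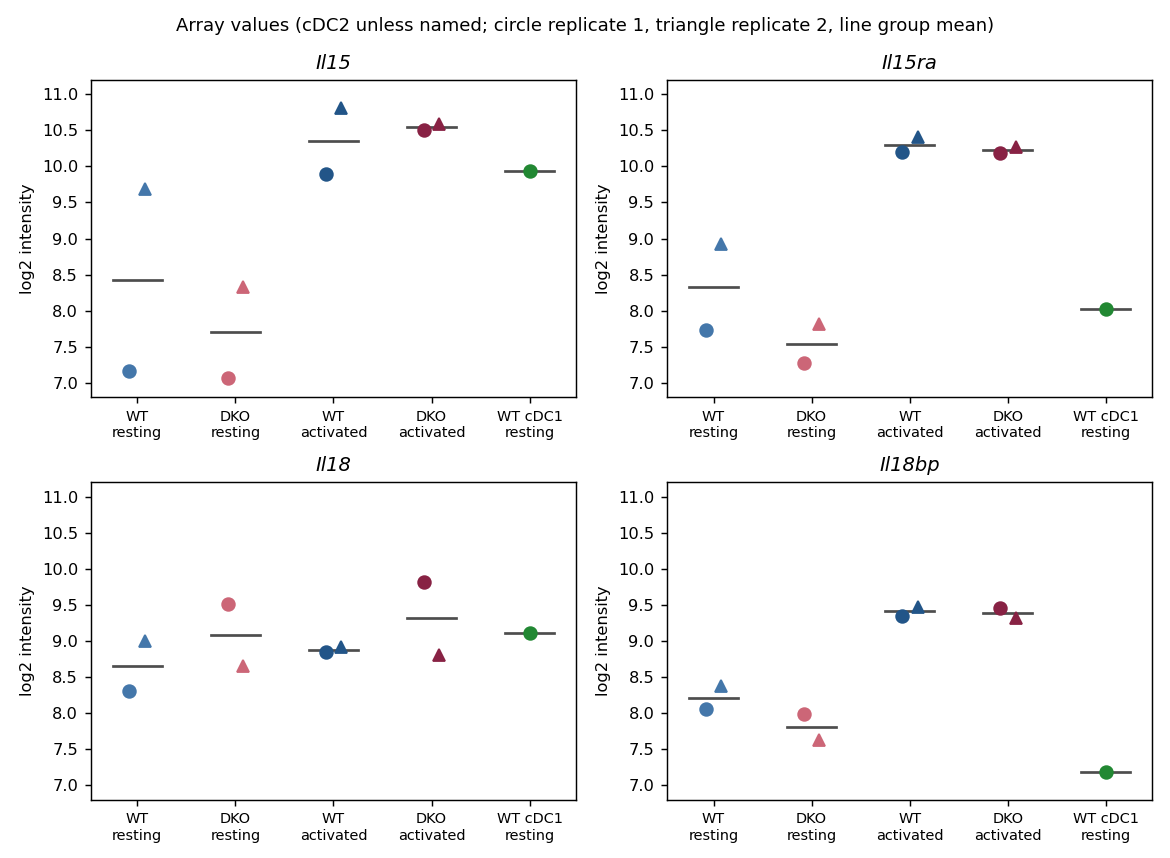
Log2 intensity of Il15, Il15ra, Il18 and Il18bp on each array, by group; circles are replicate 1, triangles replicate 2 and lines the group mean. Il15, Il15ra and Il18bp sit higher on all 4 activated cDC2 arrays than on all 4 resting ones. Within a genotype 19.9% (WT) and 21.0% (DKO) of all genes separated so, and the share over both genotypes together was not counted. Il18 overlaps throughout, and the resting WT arrays of Il15 read 7.16 and 9.68.

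The gap between the 2 resting WT arrays was a feature of Il15 more than of most genes. Replicate 2 exceeded replicate 1 by 2.52 on the log2 scale, 5.74-fold, the 9th largest such gap in size among the 10728 genes tested. Il15 was also higher on replicate 2 in the other cDC2 groups, by 1.25 in resting DKO, 0.91 in activated WT and 0.09 in activated DKO cells. Il15ra showed gaps of 1.19, 0.53, 0.20 and 0.10 in resting WT, resting DKO, activated WT and activated DKO cells. Irf7, an amplifier of type I interferon production, read 10.27 and 12.27 on the resting WT arrays and 9.93 and 10.62 on the resting DKO arrays. The mean of 9 antiviral interferon-stimulated genes, a list chosen after the values were seen, was 10.01 and 11.19 on the resting WT arrays, 9.24 and 8.99 on the resting DKO arrays and 11.53 to 12.00 on the activated ones. All 9 were higher on resting WT replicate 2, as Il15 was. On resting DKO replicate 2, where Il15 was also higher, 4 of the 9 were higher (Ifit3, Mx1, Oas1a and Oasl2, the last from 7.38 to 8.41) and 5 were lower, with the largest fall in Cxcl10, from 8.05 to 6.17. Their part in the spread of Il15 was not tested.

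Il18, the IL-18 precursor gene, was well above the floor on every array and did not separate the groups. Its intensity in WT cDC2 was 315 and 511 at rest and 458 and 481 after activation. In DKO cDC2 it was 730 and 402 at rest and 906 and 448 after activation. The ranges overlapped in each of these comparisons, and the highest values belonged to replicate 1 of both DKO groups.

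Activation shifted Il18 by 0.22 ± 0.43 (SE) on the log2 scale in WT cells, with a 95% interval from -0.81 to 1.26, and by 0.23 ± 0.43 (SE) in DKO cells (limma adjusted p = 0.770 and 0.750). A WT rise of about the size seen for Il15ra lies outside that interval, while one of the size seen for Il18bp lies inside it. Unlike Il15, Il18 was lower on replicate 2 in DKO cells, by 0.86 at rest and 1.02 when activated, and higher on replicate 2 in WT cells, by 0.70 at rest and 0.07 when activated.

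Il18bp, the gene of the soluble IL-18 antagonist, rose in both genotypes, with the smallest standard error of the 4 members in the shared fit. Its intensity was 265 and 330 in resting WT cDC2 and 654 and 711 in activated WT cDC2. The DKO arrays read 254 and 198 at rest and 704 and 641 when activated. All activated arrays lay above all resting ones.

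The log2 mean of Il18bp went from 8.21 ± 0.22 (SD, n = 2) to 9.41 ± 0.08 (SD, n = 2) in WT cells, higher by 1.20 ± 0.16 (SE), or 2.30-fold (limma adjusted p = 0.0135). In DKO cells it went from 7.81 ± 0.25 (SD, n = 2) to 9.39 ± 0.10 (SD, n = 2), higher by 1.58 ± 0.16 (SE), or 2.99-fold (limma adjusted p = 0.00479). The DKO call held under all 17 alternatives run, with limma's adjusted p from 0.00111 to 0.0423. The WT call was lost without WT resting replicate 1 (1.04, limma adjusted p = 0.0708), WT activated replicate 1 (1.26, 0.0541) or WT activated replicate 2 (1.14, 0.0911).

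Of the 4 members, 2 were called higher on activation in WT cells (Il15ra and Il18bp), where 3.97% of all genes tested were called higher. The same 2 were called higher in DKO cells, where the share over all genes was 5.82%. Counting instead genes whose activated arrays all lay above the resting ones of that genotype gave 3 of 4 members in each. The share of all genes was 19.9% in WT and 21.0% in DKO cells. Il15, Il15ra and Il18bp also separated so over both genotypes together, where the share of all genes was not counted. With the replicate block, 3764 genes passed in either direction in WT and 4053 in DKO, against 1131 and 1472 without it.

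No member passed the test between the genotypes in either state, as limma called almost nothing there: 0.0186% of genes, or 2 of 10728, at rest, after activation and in the mean of both states. At rest 1 member, Il18bp, had an unadjusted p below 0.05, and in the other genotype comparisons none had. Over all genes 707 of 10728 had one at rest, 638 after activation and 1157 in the mean of both states. In resting cells Il15 was lower in DKO by 0.72 ± 0.83 (SE), Il15ra by 0.79 ± 0.38 (SE) and Il18bp by 0.40 ± 0.16 (SE), and Il18 was higher by 0.43 ± 0.43 (SE). limma's adjusted p was 0.756 to 1 over the 4 members at rest, 1 for each after activation and 0.590 to 0.921 in the mean of both states. The resting DKO arrays of Il18bp both lay below the WT ones, but the share of all genes separated in this way was not counted. Means of 4 marker lists were also lower on both resting DKO arrays than on both resting WT ones: 5 plasmacytoid dendritic cell markers (7.32 and 6.90 against 7.82 and 7.91), 5 monocyte markers (5.79 and 6.04 against 6.58 and 6.41), 8 macrophage markers (6.90 and 6.71 against 7.11 and 7.17) and 8 cDC1 markers (6.46 and 6.42 against 6.81 and 6.85). Siglech, a defining plasmacytoid marker, lay near or below the floor on every array, at 5.66 to 5.97. Not every listed gene followed its list mean. Xcr1 and Clec9a were below the floor on every resting cDC2 array, and the macrophage marker Spic was higher in DKO (9.56 and 9.08 against 8.86 and 8.48). The mean of 6 neutrophil markers was higher on both resting DKO arrays (5.92 and 5.88 against 5.82 and 5.64). Beside the cell markers, the mean of the 9 antiviral genes was lower on both resting DKO arrays (9.24 and 8.99 against 10.01 and 11.19). Of these genes 0 were higher in resting DKO than in resting WT cells by group mean. The part of all these lists in the Il18bp difference was not tested. After activation the differences were 0.19 ± 0.83 (SE) for Il15, -0.07 ± 0.38 (SE) for Il15ra, 0.44 ± 0.43 (SE) for Il18 and -0.02 ± 0.16 (SE) for Il18bp, DKO minus WT. For the activated state the 95% interval was -0.42 to 0.38 for Il18bp and -0.99 to 0.84 for Il15ra, and the far wider -1.82 to 2.21 for Il15. In the mean of both states the differences were -0.26 ± 0.59 (SE) for Il15, -0.43 ± 0.27 (SE) for Il15ra, 0.44 ± 0.30 (SE) for Il18 and -0.21 ± 0.12 (SE) for Il18bp. With the replicate block, 77 genes passed at rest, 61 after activation and 595 in the mean of both states, and none of them was a member.

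All 4 responses were at least as large in DKO as in WT cells, and none of these differences passed the test. The DKO response exceeded the WT one by 0.91 ± 1.18 (SE) for Il15, 0.71 ± 0.54 (SE) for Il15ra, 0.01 ± 0.61 (SE) for Il18 and 0.38 ± 0.23 (SE) for Il18bp. limma called 0% of all genes in this comparison, although 121 had an unadjusted p below 0.05, none of them a member. The larger Il15ra and Il18bp responses of DKO cells came with lower resting means, since their activated means differed by at most 0.07.

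**Figure D2:**
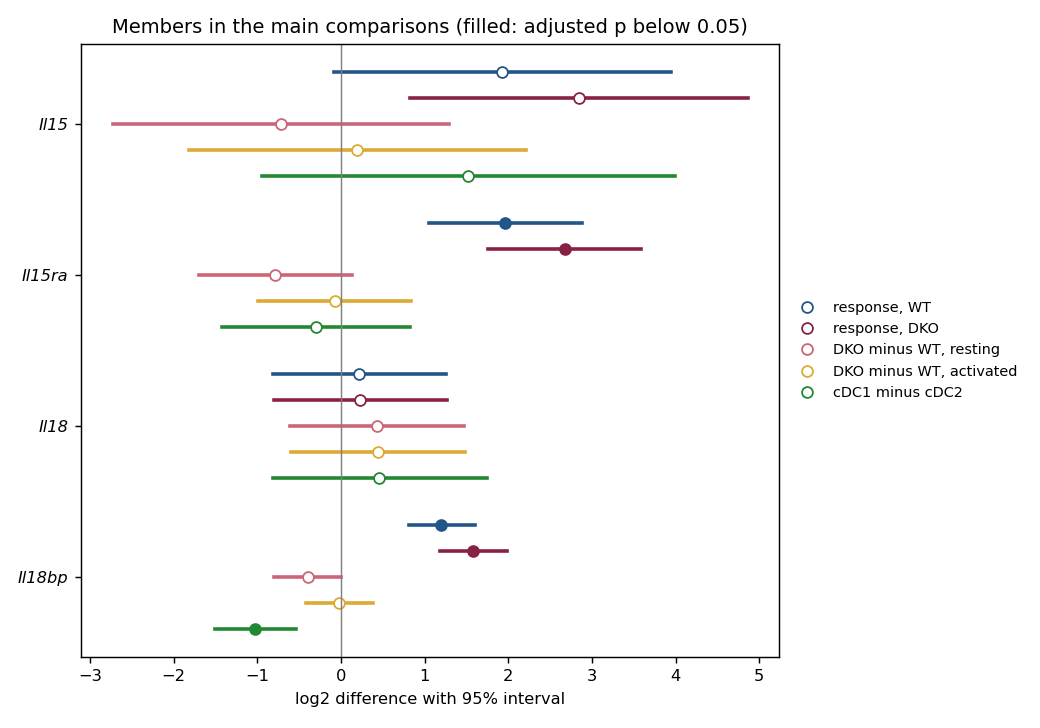
Log2 differences of the 4 members with 95% intervals from limma, for the responses to activation, the genotype differences and cDC1 against cDC2; filled points passed at adjusted p below 0.05. Filled points are the responses of Il15ra and Il18bp in both genotypes and the lower Il18bp value of cDC1 (-1.03), and the genotype intervals cross 0 except that of Il18bp at rest, which ends at 0.00.

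Resting WT cDC1 differed from resting WT cDC2 in the antagonist. The cDC1 array read 145 for Il18bp, below 265 and 330 in resting WT cDC2 and the lowest of all 9 arrays. The difference of -1.03 ± 0.20 (SE), or 2.04-fold lower, passed limma's test (adjusted p = 0.0236), where 6.56% of genes were called lower and 7.08% higher. The lone cDC1 array is assumed to vary like the other groups, and the call was lost without WT resting replicate 2 (-0.87, adjusted p = 0.0726). The mean of the plasmacytoid markers was 6.56 on the cDC1 array, also the lowest of the 9. Of its genes Ccr9 (5.51) and Lag3 (5.95) were lowest there, while Siglech, Tcf4 and Pacsin1 were not. The mean of the cDC2 markers was lowest there too, at 5.22. The part of these markers in the Il18bp difference was not tested. Il15 read 984 in cDC1, above both resting WT cDC2 arrays, at a difference of 1.52 ± 1.02 (SE; limma adjusted p = 0.382). That difference was 0.26 without WT resting replicate 1 (limma adjusted p = 0.873) and 2.78 without WT resting replicate 2 (0.0710). Il18 read 554, also above both (0.46 ± 0.53 SE; limma adjusted p = 0.628), and Il15ra read 262, between them (-0.30 ± 0.46 SE; limma adjusted p = 0.735). For Il15 the cDC1 array lay between the 2 activated WT arrays, and for Il15ra between the 2 resting WT arrays.

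Ordered by group mean, Il15 ran from resting DKO through resting WT, cDC1 and activated WT to activated DKO cells, and no neighbouring pair differed by more than 2 SE. For Il15ra the order was resting DKO, cDC1, resting WT, activated DKO and activated WT, and only the step from resting WT to activated DKO cells (1.89 ± 0.38 SE) exceeded 2 SE. Il18bp ran from cDC1 to resting DKO (0.63 ± 0.20 SE), resting WT (0.40 ± 0.16 SE) and activated DKO (1.18 ± 0.16 SE), each step beyond 2 SE, and then to activated WT (0.02 ± 0.16 SE). For Il18 the order was resting WT, activated WT, resting DKO, cDC1 and activated DKO, with overlapping arrays at each step.

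Around the members, 46 other genes of the axis were listed by role, of which 41 had a cluster with 1 symbol and 36 were bright enough to test. On activation 4 of the 36 rose and 2 fell in WT cells, and 5 rose and 3 fell in DKO cells. Over all genes 3.97% rose and 6.57% fell in WT cells, and 5.82% rose and 7.90% fell in DKO cells. In the mean of both responses, the comparison added later, 10 of the 36 rose and 6 fell. Of all genes 10.6% were called higher and 21.7% lower there. The median difference of the 36 was 0.33 in WT and 0.32 in DKO cells, beside -0.07 and -0.09 for all genes tested. Between genotypes 0 of 36 passed limma's test in any comparison, while 2 at rest, 3 after activation and 3 in the mean of both states had an unadjusted p below 0.05. Over all 10728 genes the counts at that cut were 707, 638 and 1157, so the share among the 36 was near that of all genes. The smallest p among them belonged to Casp4 at rest (-0.71 ± 0.23 SE; limma adjusted p = 0.650) and to Irak2, a kinase of the IL-1 and IL-18 receptor pathway, after activation (-0.81 ± 0.21 SE; adjusted p = 0.592). For the difference between responses 0 of 36 passed, and none had an unadjusted p below 0.05.

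Among IL-15 receptor and signalling genes, 1 of 5 tested fell in each genotype tested alone and none rose. The gene that fell was Adam17, a sheddase that releases membrane proteins, at -0.80 ± 0.18 (SE) in WT and -0.78 ± 0.18 (SE) in DKO cells (limma adjusted p = 0.0426 and 0.0384). In the mean of both responses 3 of the 5 rose: Stat3 by 0.71 ± 0.17 (SE), Stat5a by 0.39 ± 0.11 (SE) and Stat5b by 0.35 ± 0.10 (SE), with limma adjusted p = 0.0221, 0.0399 and 0.0424. Il2rb, the receptor chain of the responding cell, stayed below the floor at 4.93 to 5.40. Stat5a and Stat5b, the transducers of IL-15 signals, differed between cDC subsets: they were lower in cDC1 by 1.14 ± 0.19 (SE) and 1.31 ± 0.18 (SE) (limma adjusted p = 0.0147 and 0.00771). Il2rg and Jak3 were not analysed here.

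Among IL-18 receptor and signalling genes, 1 of 6 rose in each genotype. Myd88, the adaptor shared by IL-18 and Toll-like receptors, was higher by 1.29 ± 0.24 (SE) in WT and 1.45 ± 0.24 (SE) in DKO cells (limma adjusted p = 0.0280 and 0.0149). Il18r1 lay below the floor on every array, at 4.09 to 4.53, and Irak4 was not analysed here.

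Of 6 IL-18 processing genes, 1 rose in WT and 2 in DKO cells. Casp4, the caspase that senses cytosolic LPS, went from 7.79 and 7.49 on the resting DKO arrays to 10.19 and 10.04 on the activated ones. It rose by 1.81 ± 0.23 (SE) in WT and 2.48 ± 0.23 (SE) in DKO cells (limma adjusted p = 0.0113 and 0.00426). Casp1, which cuts the IL-18 precursor, rose by 0.79 ± 0.20 (SE) in DKO cells (limma adjusted p = 0.0480) and differed by 0.68 ± 0.20 (SE) in WT cells (adjusted p = 0.0782). It was lower in cDC1 by 1.10 ± 0.24 (SE; limma adjusted p = 0.0325). All 6 had differences above 0 in both genotypes, with medians of 0.73 and 0.82, beside -0.07 and -0.09 over all genes tested. The share of all genes above 0 was not counted. Pycard had the smallest of the 6, at 0.31 in WT and 0.35 in DKO cells. Il18 itself was also above 0, at 0.22 and 0.23.

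Of 6 IFN-gamma signalling genes, 2 rose and 1 fell in each genotype. Irf8, a transcription factor of dendritic cells, rose by 4.04 in WT and 3.92 in DKO cells (limma adjusted p = 0.00375 and 0.00314). Irf1, an activator of interferon-gamma target genes, rose by 2.32 and 2.14 (limma adjusted p = 0.00311 and 0.00219). Ifngr1, the ligand-binding chain of the IFN-gamma receptor, fell by 1.04 and 1.22 (limma adjusted p = 0.0165 and 0.00788). In cDC1 Irf8 was higher by 2.09 and Ifngr1 by 1.51 (limma adjusted p = 0.0229 and 0.00590), and Jak2 was lower by 1.03 (adjusted p = 0.0158). Irf8 did not share the replicate spread of Il15 at rest, since it read 8.06 and 7.65 on resting WT replicates 1 and 2.

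None of 6 type I interferon signalling genes passed limma's test for activation in either genotype, and the list's medians were 0.15 in WT and 0.19 in DKO cells. The smallest p belonged to Ifnar1, a chain of the type I interferon receptor, in WT (-0.57 ± 0.18 SE; limma adjusted p = 0.0899) and to Stat2 in DKO cells (1.04 ± 0.32 SE; adjusted p = 0.0832). Irf7 read 9.93 and 10.62 on the resting and 11.98 and 11.94 on the activated DKO arrays. In WT cells it read 10.27 and 12.27 at rest and 11.77 and 12.52 when activated. Of the 9 antiviral genes, the list chosen after the values were seen, limma called 2 higher in WT and 6 in DKO cells. The shares over all genes were 3.97% and 5.82%. Ifnb1 was not bright enough to test, at 5.76 and 4.92 on the activated WT arrays and 6.37 and 4.71 on the activated DKO arrays. Of 7 LPS sensing genes, none passed in WT cells and Ticam1, the TRIF adaptor, fell by 0.68 in DKO cells (limma adjusted p = 0.0146). In cDC1, 3 of the 7 were lower, among them Ticam2 (-0.85) and Rel (-0.72), with limma adjusted p = 0.0198 and 0.0238. Tlr4 was too dim to test, and Nfkb1 was not analysed here. In all, 7 of the 36 genes were lower and 2 higher in cDC1, beside 6.56% and 7.08% of all genes.

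**Figure D3:**
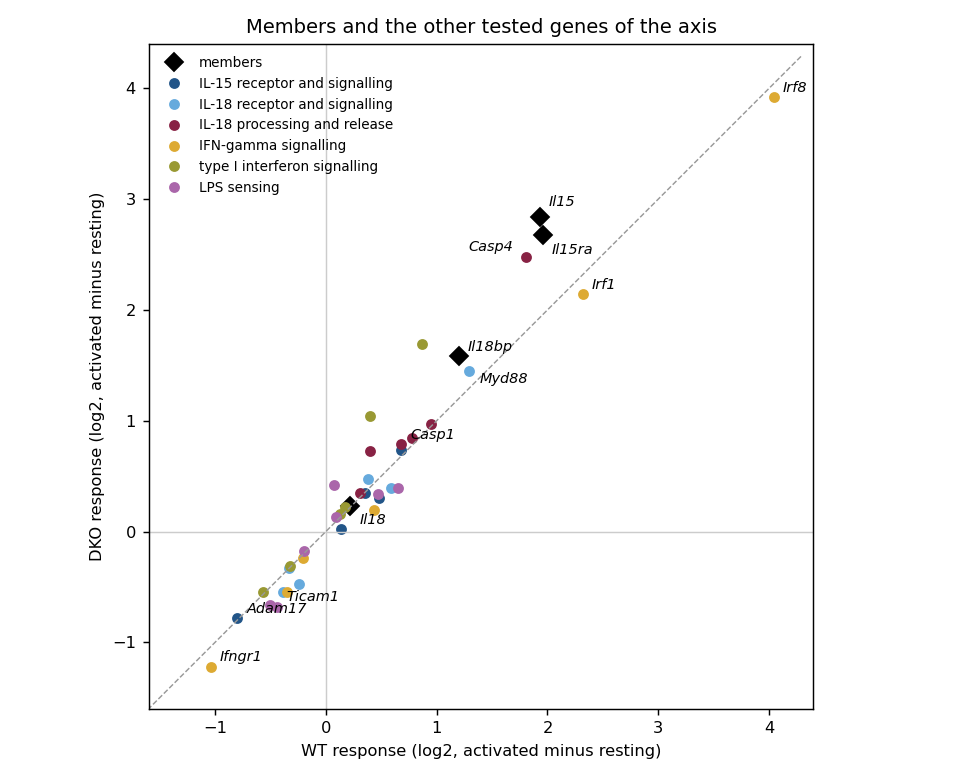
Response to activation (log2, activated minus resting) in WT cDC2 on the horizontal and in DKO cDC2 on the vertical axis, for the 4 members (diamonds) and the 36 other genes tested (circles, coloured by role); the dashed line marks equal responses. Il15 (1.93 and 2.84), Il15ra (1.96 and 2.68) and Casp4 (1.81 and 2.48) lie above the line, Irf8 (4.04 and 3.92) and Irf1 (2.32 and 2.14) slightly below it, and Il18 sits near 0.

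The members' likeness to one another and to other genes is given as Pearson r over the 9 arrays, a description in which group differences and shared replicate numbers both count. Il15 and Il15ra had r = 0.87 over all arrays and 0.96 over the 8 cDC2 arrays. Il15ra and Il18bp had r = 0.91 and 0.96, and Il15 and Il18bp 0.61 and 0.87. Il18 had r of 0.15 to 0.24 with the others over 9 arrays. On the cDC1 array Il15 (984) was above every resting cDC2 array, and Il15ra (262) lay between the resting WT arrays. Il18bp (145) was the lowest of the 9 arrays there. With that array included, r of Il15 with Il15ra and with Il18bp was lower.

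The 5 genes most like Il15 were Plaat3 (r = 0.992), Pttg1 (0.992), Smchd1 (0.975), Tap2 (0.974) and Plekha2 (0.970). Plaat3, a phospholipase and acyltransferase, read 7.14 and 9.63 on the resting WT arrays and 10.09 on the cDC1 array, beside 7.16, 9.68 and 9.94 for Il15. Pttg1, known as securin for its part in chromosome separation, read 6.96 and 8.75 on the resting WT arrays. Tap2, which pumps peptides for MHC class I loading, read 9.85 and 10.74 there. The cDC1 array read 8.75 for Pttg1 and 10.63 for Tap2. These genes were picked for their likeness to Il15 over the same 9 arrays. Sharing its high second resting WT array and its high cDC1 array follows from that choice.

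The genes most like Il15ra were Phxr4 (r = 0.990), Rab22a (0.990), Tmem184b (0.989), Ehd4 (0.989) and Pnp (0.987). Rab22a and Ehd4 act in endosomal traffic, and Pnp is a purine salvage enzyme. Ehd4 read 8.24 to 9.36 on resting and 10.27 to 10.66 on activated cDC2 arrays. Il18bp was most like Atp11b (r = 0.998), a phospholipid flippase, Cst7 (0.994), a cysteine protease inhibitor, Rapgef2 (0.993), a Rap exchange factor, Tagap (0.992) and Larp1 (0.992), an RNA-binding protein. Rapgef2 read 8.19 on the cDC1 array, 8.44 to 9.25 on resting and 10.40 to 10.70 on activated cDC2 arrays. Its cDC1 value was lowest, as for Il18bp, which follows from its choice by r. The closest gene to Il18 was H4c14, a histone H4 gene with near-identical copies (r = 0.937), followed by Gng5 (0.855), Txndc9 (0.851), Tcf23 (0.849) and Ifitm7 (0.835). Only 1 of the genes ranked thus came above 0.9. Gng5 (9.59 to 9.75), Tcf23 (5.71 to 6.07) and Ifitm7 (5.98 to 6.38) varied little over the arrays, the last 2 near the floor.

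**Figure D4:**
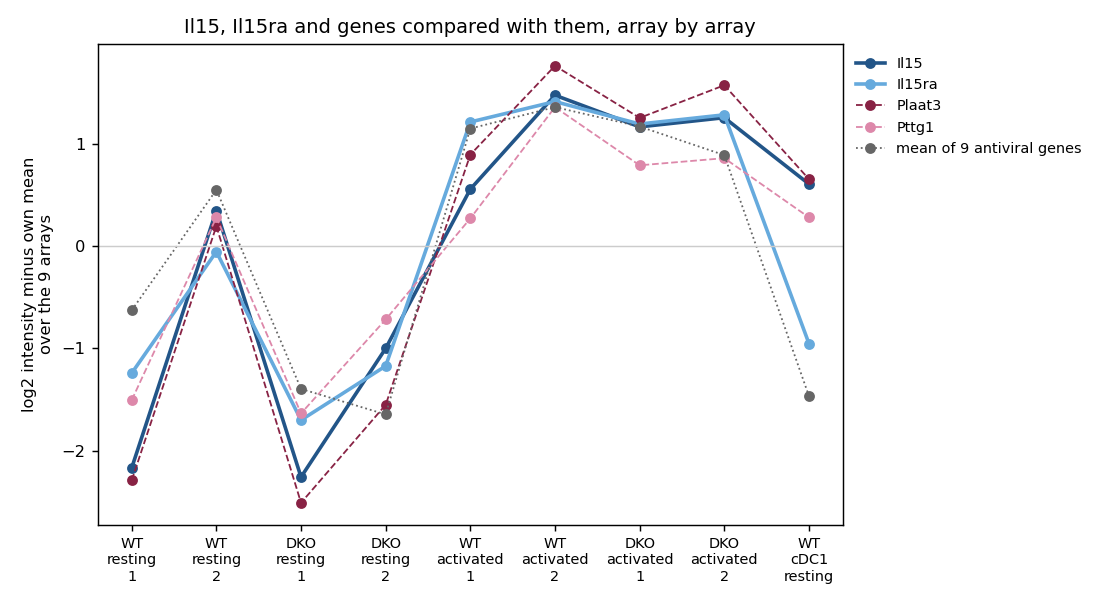
Log2 intensity minus its own mean over the 9 arrays for Il15, Il15ra, Plaat3, Pttg1 and the mean of 9 antiviral genes, array by array; lines join values of the same gene or list. Il15, Plaat3 and Pttg1 run together, high on resting WT replicate 2 and on cDC1. On cDC1 Il15ra lies between its resting WT values, and the antiviral mean lies below its own resting WT values. Plaat3 and Pttg1 were picked for their high r with Il15 over these arrays.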

How the data were processed

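RNA of 9 sorted samples was hybridised to Affymetrix gene arrays. The authors deposited linear intensity values made with RMA in Affymetrix Expression Console, per the submitters' processing notes, 1 value per transcript cluster and array; versions and build are not given in the sources used here. RMA brings arrays to a shared distribution (array medians 53.4 to 55.6), so a change in total RNA is not visible. The value was taken to log2. Of 28853 clusters, 21789 carried 1 symbol. Each gene took its brightest cluster, and genes with a group mean above 61.3 (5.94 in log2) in at least 1 group were tested. limma 3.58.1 in R 4.3.3 fitted all 9 arrays with a mean per group (5 groups, 4 residual degrees of freedom). Its two-sided p-values were adjusted (Benjamini-Hochberg) over all 10728 genes, and the fit was tested on simulated data. Depth has no meaning for arrays: their number, 2 per cDC2 group and 1 for cDC1, limits the precision.

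Replicate numbers come from the sample titles, which do not say that they mark a shared mouse or day. Deviations of same-numbered arrays correlated in all 6 pairs of cDC2 groups (r = 0.45 to 0.69 over genes). The main fit ignored the numbers and treated the arrays as unpaired, also in the runs that left out an array. The shared deviation therefore stayed in the spread from which its calls and intervals were made. A fit of the 8 cDC2 arrays with the number as a block (3 residual degrees of freedom) was an alternative.

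Members and lists were chosen with earlier results of these data known. Named genes were the members, up to 3 called genes per role list and comparison with the largest difference, Batf and Batf3, and the 5 genes of highest r with each member. The antiviral list and the mean of both genotypes' responses were added after the values were seen. Alternatives covered the brightness filter, quantile normalization, median centring, an offset of 16, the spread model, averaging clusters, the groups in the fit, the block and leaving out each array.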

Additional observations from a re-analysis of the deposited data

How the results depend on the processing

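Over 8 comparisons, 492 values of member differences kept direction and side of the threshold under the alternatives, 22 lost their call, 6 gained one and 20 reversed. None of the reversed values was of a called difference. The count of members called on activation in WT cells was 2, from 0 to 3 when an array was left out, and 0 with only the groups compared in the fit. In DKO cells it was 2, and from 1 to 3 with an array left out. For cDC1 against cDC2 it was 1, from 0 to 1 with an array left out, and 0 with only the groups compared. The replicate block gave 3 members called in each genotype, by adding Il15, and changed no other member's call. The calls of Il15ra in WT passed in 9 of 17 alternatives, of Il18bp in WT in 13, of Il15ra in DKO in 13 and of Il18bp in DKO in 17. Il15, not called in the main fit, passed in 2 of the 17 in WT and in 4 in DKO.

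Uncalled differences that changed sign were these, as ranges with an array left out. DKO minus WT at rest ran from -1.98 to 0.54 for Il15. After activation it ran from -0.26 to 0.65 for Il15, -0.17 to 0.02 for Il15ra, -0.07 to 0.95 for Il18 and -0.09 to 0.05 for Il18bp, which was 0.00 with median centring. In the mean of both states it ran from -0.89 to 0.37 for Il15. The response of Il18 ran from -0.12 to 0.57 in WT, -0.27 to 0.74 in DKO and -0.03 to 0.48 in their mean. The difference between responses ran from -0.35 to 2.17 for Il15 and from -0.50 to 0.52 for Il18, which was -0.06 with quantile normalization. Il15ra in cDC1 minus cDC2 ran from -0.90 to 0.29. The causes were not tested. Counts over all genes moved more: leaving out an array gave 61 to 698 genes for WT and 217 to 1276 for DKO activation, and with only the groups compared 17, 791 and, for cDC1, 415 passed.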
